A study of Mus musculus with 6 samples.

Results

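The genes described here are the synaptic vesicle release machinery of mouse cortical neurons, that is the synaptotagmins and other calcium sensors, the SNARE proteins and their binders, the complexins, the active-zone scaffolds, the vesicle proteins and the vesicular glutamate transporters. They were taken by symbol from a written list, drawn up with earlier results of these data known, and the rule used no threshold on measured values. All 49 listed genes were found among the 43432 genes of the expression tables. The neurons came from the cortex of wild-type C57BL/6 embryos of both sexes, pooled, at E16.5, an embryonic stage, and were cultured for 7 days. In all groups, activity was silenced overnight from day 6 with 1 μM tetrodotoxin (TTX, which blocks sodium channels) and 100 μM DL-AP5 (which blocks NMDA receptors). The 3 groups then received 55 mM KCl, which depolarizes the membrane, for 0 h, 2 h or 6 h, so the 0 h group is silenced neurons and not neurons at rest. Each group had 2 libraries of poly(A) RNA, described as biological duplicates, and no source ties a library to a litter or culture. The question of the series was which transcripts change on neuronal activation.

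In a nerve terminal, vesicles filled with transmitter dock at the active zone and are primed there by RIM and Munc13 proteins. SNARE proteins on the vesicle (VAMPs) and on the plasma membrane (syntaxins and SNAP25) zip together to drive fusion, complexins hold and assist this step, and synaptotagmins sense the calcium that enters when the terminal is depolarized. Synapsins tether the reserve vesicles, and SV2 proteins sit in the vesicle membrane.

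The summed expected counts were 25959298 to 28573067 per library, and 18767 to 19212 genes had a count. Transcripts of Fos, Npas4 and Bdnf, which depolarization is known to induce, were higher than in silenced neurons by 7.71, 7.64 and 4.03 on the log2 scale after 2 h and by 6.73, 6.47 and 4.85 after 6 h. The 2 libraries at 2 h stood apart from each other more than the other pairs: the standard deviation of their log2 difference over 12290 genes was 0.429, against 0.246 at 0 h and 0.214 at 6 h, and the difference followed the GC content of the gene (Spearman's rho of -0.744, a description across genes). Among the marker lists, TPM (transcript counts scaled for gene length and library total) is a level per length. The 9 neuron markers summed to 5777 and 5673 TPM before KCl and 5024 and 5183 TPM after 6 h. Tubb3, which went from 1639 and 1679 TPM to 666.1 and 794.0 TPM, was the 1 of the 9 that fell at 6 h, and 5 rose, among them Map2, Nefm and Nefl. The excitatory neuron markers Neurod6 and Tbr1 rose at 6 h, by 0.72 and 0.67 on the log2 scale, and Neurod2 and Camk2a had log2 fold changes of 0.08 and 0.09. The 5 interneuron markers summed to 315.3 and 310.7 TPM and then 608.5 and 564.9 TPM, where 3 rose (Gad1, Gad2 and Dlx1), and Dlx2 and Lhx6 had log2 fold changes of 0.12 and -0.10. The 6 astrocyte markers summed to 511 and 551 TPM before KCl and 424 and 413 TPM after 6 h, where 3 fell. The 5 markers of progenitors or dividing cells summed to 99.7 and 104.5 TPM and then 86.0 and 78.6 TPM, where 1 rose (Pax6) and 2 fell (Top2a, and Hes5 by 1.81). Of the oligodendrocyte lineage markers, Sox10 fell by 2.61 on the log2 scale at 2 h. At 6 h Olig1 and Olig2 rose by 0.44 and 0.51, while 1 marker of the list fell. The 6 microglia markers summed to between 2.42 and 6.75 TPM and 5 vascular markers to between 0.82 and 1.58 TPM, with 2 of the vascular markers at or under 3 counts in every library. At these low levels 1 microglia marker rose at 6 h against both earlier times. Of the vascular markers, 1 rose at 2 h and 1 at 6 h, both against 0 h. In bulk RNA, fewer cells of a type and less RNA per cell cannot be told apart, and the part of these lists in the results below was not tested.

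Before KCl, the release genes spanned a wide range of levels. Their median was 49.1 TPM at 0 h, 15 members stood above 100 TPM and 3 (Syt2, Unc13c and Cplx3) below 1 TPM. The vesicle SNARE Vamp2 had the highest mean level (559.3 and 562.3 TPM), followed by Snap47 (448.9 and 445.4 TPM), Snap25 (427.0 and 415.2 TPM) and the vesicle glycoprotein synaptophysin, Syp (394.2 and 388.4 TPM). None of these neighbours in the order overlapped between their libraries. Syt11 (328.3 and 328.2 TPM) and Syt4 (285.4 and 281.7 TPM) led the synaptotagmins, and Syt4 overlapped with the vesicle GTPase Rab3a (284.3 and 277.6 TPM). By 6 h, Syt4 had moved from the 6th to the 1st place by mean level (692.5 and 708.9 TPM), above Vamp2 (639.3 and 677.1 TPM) without overlap. At 2 h Syt4 (711.6 and 543.6 TPM) and Vamp2 (622.5 and 614.4 TPM) overlapped.

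To see what the members called at 6 h share in sequence, the promoters were read for the 37 of 49 members that the RefSeq table of mouse promoters (GRCm38.p6, 250 bases before to 50 after each start site) lists, 50 promoters in all. The 4 promoters given here are those of Sv2c (chr13:96132528-96132827, minus strand) and Stxbp5l (chr16:37384909-37385208, minus strand), which were called higher at 6 h, of Syt3 (chr7:44383876-44384175, plus strand), which had the most negative fold change at 6 h, and of Syn1 (chrX:20920869-20921168, minus strand), the one member with a palindromic cAMP response element. Capitals mark that element, and the other 3 hold none of the motifs searched.
Sv2c: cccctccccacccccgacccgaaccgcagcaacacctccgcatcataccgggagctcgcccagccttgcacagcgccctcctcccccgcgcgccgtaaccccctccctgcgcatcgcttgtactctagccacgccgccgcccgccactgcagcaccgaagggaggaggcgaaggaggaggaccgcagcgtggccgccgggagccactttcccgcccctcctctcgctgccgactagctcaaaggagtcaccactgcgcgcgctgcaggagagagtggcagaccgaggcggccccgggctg
Stxbp5l: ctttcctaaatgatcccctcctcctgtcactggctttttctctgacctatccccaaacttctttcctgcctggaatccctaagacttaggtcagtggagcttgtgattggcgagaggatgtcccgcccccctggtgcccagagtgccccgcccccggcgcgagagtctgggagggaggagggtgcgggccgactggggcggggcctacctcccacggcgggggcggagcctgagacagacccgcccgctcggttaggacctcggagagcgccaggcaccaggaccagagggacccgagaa
Syt3: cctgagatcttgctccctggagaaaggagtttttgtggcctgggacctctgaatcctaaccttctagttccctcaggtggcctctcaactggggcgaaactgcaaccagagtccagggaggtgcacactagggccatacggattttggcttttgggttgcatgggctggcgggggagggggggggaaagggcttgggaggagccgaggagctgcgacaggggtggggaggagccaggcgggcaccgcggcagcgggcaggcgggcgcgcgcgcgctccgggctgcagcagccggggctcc
Syn1: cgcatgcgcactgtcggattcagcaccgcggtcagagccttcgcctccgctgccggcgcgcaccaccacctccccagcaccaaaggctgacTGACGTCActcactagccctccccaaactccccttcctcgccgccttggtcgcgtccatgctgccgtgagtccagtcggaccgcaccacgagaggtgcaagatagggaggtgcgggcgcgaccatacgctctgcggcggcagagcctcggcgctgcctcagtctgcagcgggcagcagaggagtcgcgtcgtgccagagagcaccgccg
The letters of 3 binding sites linked to activity in neurons were searched on both strands. The cAMP response element (TGACGTCA, the CREB site) stood in 1 of the 50 member promoters, that of Syn1, 159 bases before the start site, and in 1.79% of all 32851 promoters. The AP-1 site of Fos and Jun (TGANTCA) stood in 4 of the 50 (Erc2, Rph3a, Syt2 and Syt6), or 8.0%, against 7.81% of all promoters. None of the 3 motifs can be read within another. The EGR1 site (GCGTGGGCG) stood in 1 of the 50 (Unc13a), against 0.612% of all promoters. No promoter of Sv2c, Stxbp5l or Syt3 held these letters within the 300 bases, nor did that of Unc13c, also called at 6 h, while Syt2, called lower, is among the AP-1 matches. The called genes Syt4, Syt12, Syt17, Doc2a and Syn3 are not among the 37 members read. The promoters differed in the CpG dinucleotide, which occurred 32 times in that of Sv2c, 33 times in that of Syn1, 18 times in that of Stxbp5l and 17 times in that of Syt3. The 4 sequences were 65.0% to 71.7% G or C.

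At 2 h of KCl, Syt4 was the 1 release gene called. Members were called where the adjusted p of DESeq2 was at most 0.05 and the fold change exceeded 2, which was the rule of the study. Cplx3 exceeded the fold (2.70-fold) but not the test (adjusted p = 0.257). By that rule 1 of 49 was called higher, against 3.62% of the 16840 genes tested, and 0 of 49 were called lower, against 5.94%. At an unadjusted p under 0.05 and whatever the fold, DESeq2 gave 1 member lower and the quasi-likelihood test of edgeR also 1, while limma on log2(TPM + 0.5) gave 4, with none called by edgeR or limma. Below, a gene is said to have risen or fallen where its adjusted p was at most 0.05, whatever the fold. In that sense 11 members rose at 2 h (12.3% of all genes tested did) and 0 fell (14.2% of all genes did). The median log2 fold change of the members was 0.17 and that of all genes tested 0.015.

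At 6 h against 0 h, 3 were called higher (Syt4, Stxbp5l and Sv2c), where 9.1% of 17277 genes tested were, and 7 lower (Syt2, Syt3, Syt12, Syt17, Doc2a, Unc13c and Syn3), where 10.2% were. Whatever the fold, 14 members rose (23.7% of all genes) and 19 fell (21.7% of all genes), and the median log2 fold change was 0.10. Against 2 h, 3 members were called higher at 6 h (Stxbp5l, Sv2c and Syt10), where 10.1% of 16404 genes were, and 7 lower, where 8.02% were. Those 7 were the same 7 genes as in the comparison with 0 h, which shares the 6 h libraries. Whatever the fold, 10 members rose from 2 h to 6 h (24.1% of all genes) and 22 fell (21.2% of all genes), with a median of -0.15. As shares of the 49 members, 1, 3 and 7 genes are 2.04%, 6.12% and 14.3%, and whether these differ from the shares of all genes was not tested. In all, 38 of the 49 members were called in no comparison. The share of all genes called in no comparison was not counted, so the 38 cannot be set against it.

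With 2 libraries a group, groups that do not overlap are common. The libraries of the 2 groups did not overlap for 30 of 49 members at 2 h (62.7% of all genes), for 49 of 49 at 6 h against 0 h (80.5% of all genes) and for 40 of 49 at 6 h against 2 h (74.8% of all genes).

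**Figure D1:**
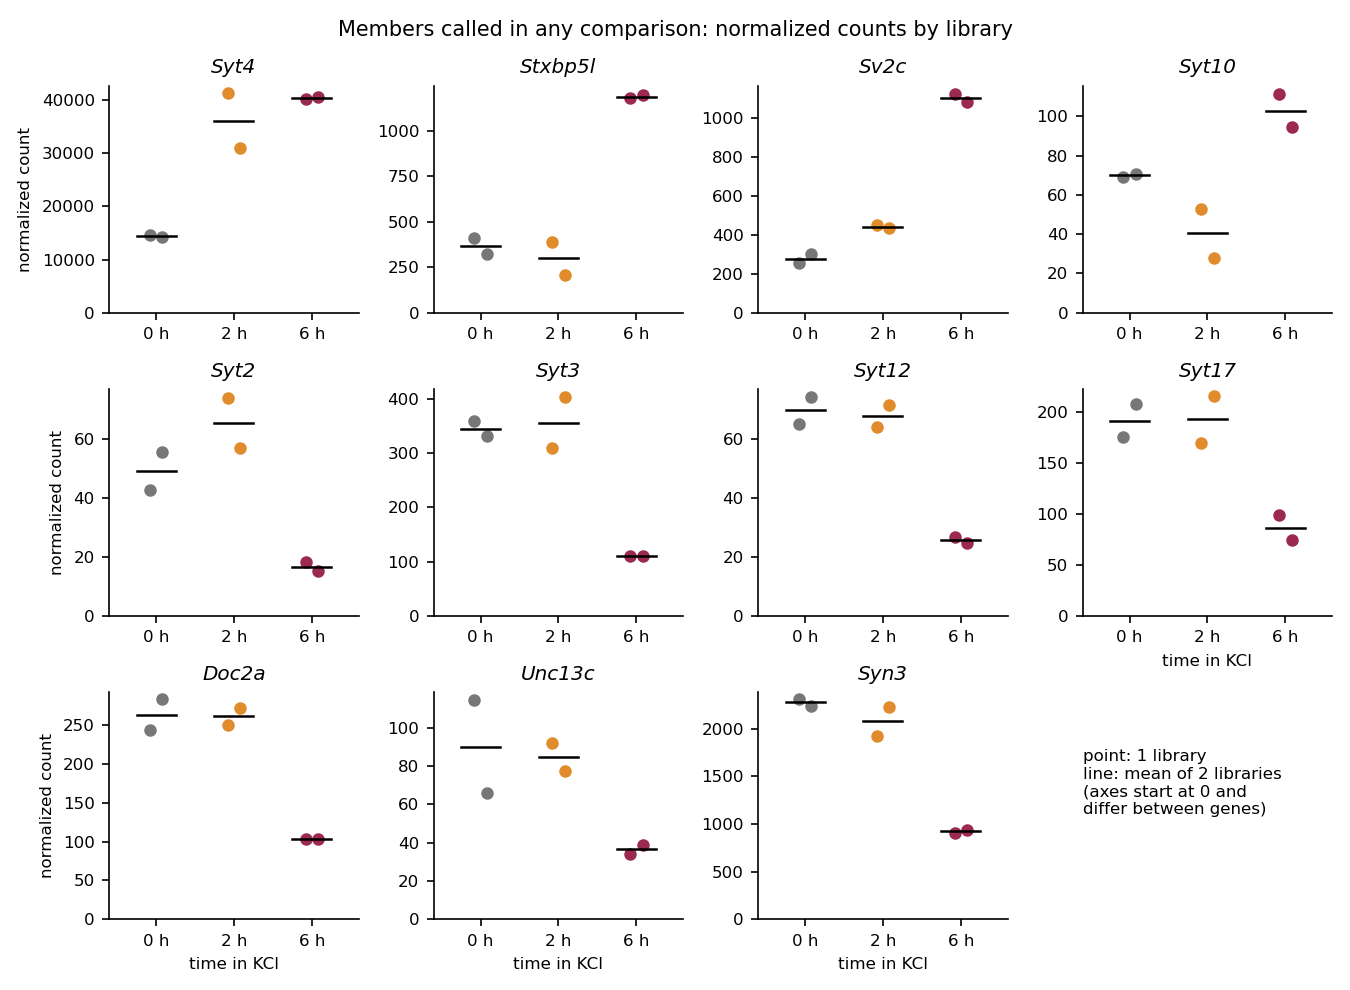
Normalized counts (vertical axes, linear, from 0) of the 11 members called in any comparison by time in KCl, with 1 point for each library and a line at the mean of 2 libraries. Syt4 was high from 2 h on, Stxbp5l and Sv2c were highest at 6 h, and the 7 members called lower at 6 h had overlapping or neighbouring levels at 0 h and 2 h and dropped at 6 h.

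The sensor group holds the synaptotagmins, Doc2 genes and Rph3a, some of which do not bind calcium. Of 17, 5 rose and 0 fell at 2 h (12.3% and 14.2% of all genes did), and 2 rose and 9 fell at 6 h (23.7% and 21.7% of all genes), with a median log2 fold change of 0.04 at 2 h and -0.35 at 6 h. One was called higher at 6 h against 0 h (Syt4) and 5 lower (Syt2, Syt3, Syt12, Syt17 and Doc2a), where 9.1% and 10.2% of all genes were.

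Syt4 encodes a synaptotagmin whose first C2 domain carries a substitution that weakens calcium binding, and it is known as an activity-induced gene. Its normalized counts were 14573 and 14229 before KCl, 41301 and 31011 after 2 h, and 40259 and 40497 after 6 h. Both later groups lay clear above the 0 h libraries, and the 2 h and 6 h groups overlapped. The log2 fold change was 1.33 ± 0.16 (standard error, adjusted p = 8.03e-16) at 2 h, a 2.51-fold rise, and 1.49 ± 0.16 (adjusted p = 3.79e-20) at 6 h, a 2.80-fold rise. From 2 h to 6 h it was 0.16 ± 0.16 (adjusted p = 0.427). Syt4 had the lowest GC content of the members (40.7%), and the 2 h libraries differed by 0.41 on the log2 scale. Without the first 2 h library the 2 h log2 fold change was 1.10 and without the second 1.5, and the 6 h against 2 h value for Syt4 was 0.39 (adjusted p = 5.09e-10) without the first and -0.27 (adjusted p = 0.00673) after correction for GC content, so the direction between 2 h and 6 h is not settled. Exons of Syt4 overlap those of Gm26658 on the opposite strand, the strand setting of the counting is not given in the sources used here, and whether the genes share reads was not tested.

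The other abundant synaptotagmins changed by less than 2-fold. Syt1, the fast calcium sensor of synchronous release, had 15035 and 13812 normalized counts before KCl, 19994 and 18404 after 2 h, and 18649 and 18304 after 6 h. The rise was 0.41 ± 0.11 on the log2 scale at 2 h (adjusted p = 0.000695) and 0.36 ± 0.11 at 6 h (adjusted p = 0.00233), but with library totals as the scale the 6 h value of Syt1 was 0.11 and did not pass. Syt11, a synaptotagmin that does not bind calcium, rose by 0.31 ± 0.09 at 2 h (adjusted p = 0.00237) and stood at 0.17 ± 0.09 at 6 h (adjusted p = 0.0997), and with library totals it did not pass at 2 h either. Syt5 counts were 2091 and 2226 before KCl and 1591 and 1725 after 6 h, and its log2 fold change of -0.38 ± 0.17 lay at the limit of the test (adjusted p of 0.05, just above the threshold before rounding).

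Syt7 and Syt16 rose and came down again. Syt7, a slow calcium sensor linked to asynchronous release and facilitation, had 4300 and 4187 normalized counts before KCl, 6151 and 6577 after 2 h, and 3738 and 3853 after 6 h, and no groups overlapped. It rose by 0.58 ± 0.10 at 2 h (adjusted p = 6.67e-08) and fell by 0.75 from 2 h to 6 h (standard error 0.10, adjusted p = 1.06e-12). Syt16, which lacks a transmembrane anchor, had 2288 and 2301 counts before KCl, 3340 and 3352 after 2 h, and 1799 and 1600 after 6 h. Its log2 fold change was 0.54 ± 0.11 at 2 h (adjusted p = 1.55e-05) and -0.98 ± 0.11 at 6 h against 2 h (adjusted p = 2.32e-16), just inside the 2-fold threshold. Syt16 was called lower there in 6 alternatives, among them TMM scaling (-1.01), GC correction (-1.09) and without the first 6 h library (-1.07). Under median-of-ratio scaling these were the 2 members that rose at 2 h and fell from 2 h to 6 h, and after GC correction Syt1, Syt4, Syt5, Syt11, Syt13, Snap47, Cplx2 and Erc2 did so as well.

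Among the sensors called lower at 6 h, Syt3 and Doc2a were the better measured. Syt3, a synaptotagmin with high calcium affinity (chr7:44384102-44400187 on the plus strand of GRCm38), had 358.6 and 331.2 normalized counts before KCl, 308.6 and 403.2 after 2 h, and 110.2 and 110.8 after 6 h. The 0 h and 2 h groups overlapped, and the 6 h libraries lay far below both. Its log2 fold change was 0.04 ± 0.21 at 2 h (adjusted p = 0.922) and -1.64 ± 0.23 at 6 h (adjusted p = 8.59e-12), which is 3.12-fold lower. Doc2a, a soluble sensor with high calcium affinity linked to spontaneous and asynchronous glutamate release (chr7:126847416-126852705 on the plus strand of GRCm38), had 243.2 and 283.2 counts before KCl, 250.7 and 271.9 after 2 h, and 102.7 and 103.3 after 6 h. It was 2.56-fold lower at 6 h (log2 fold change of -1.35 ± 0.22, adjusted p = 9.30e-09), again with overlapping 0 h and 2 h groups. Exons of Doc2a overlap those of Ino80e on the opposite strand, and its expected counts were not whole in all 6 libraries.

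Its relative Doc2b, linked to spontaneous release as well, had 2612 and 2491 counts before KCl, 2295 and 2658 after 2 h, and 1238 and 1375 after 6 h. It fell by 0.97 on the log2 scale at 6 h (standard error 0.13, adjusted p = 9.68e-12), so Doc2a and Doc2b fell at 6 h and neither passed the test at 2 h (log2 fold changes of -0.01 and -0.04). Doc2b missed the 2-fold rule narrowly and was called lower at 6 h against 0 h with TMM scaling (-1.0), with library totals (-1.21), without the second 6 h library (-1.04) and with limma on log2(TPM + 0.5) (-1.13). Against 2 h, Doc2b was called with library totals (-1.0), without the first 2 h library (-1.02) and without the second 6 h library (-1.0).

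Syt17, Syt12 and Syt2 had low counts. Syt17 had 174.9 and 207.3 normalized counts before KCl, 169.8 and 215.0 after 2 h, and 98.4 and 74.2 after 6 h (6 h against 0 h log2 fold change of -1.15 ± 0.28, adjusted p = 0.000190). Without the second 6 h library its value was -0.96 (adjusted p = 0.0444), inside the 2-fold threshold, and against 2 h it was -0.97 without that library and -0.96 without the second 2 h library. Syt12, a synaptotagmin that does not bind calcium, had 64.8 and 74.2 counts before KCl, 63.9 and 71.3 after 2 h, and 26.8 and 24.7 after 6 h. Neither gene had overlapping libraries between 6 h and the earlier groups. The Syt12 log2 fold change of -1.43 ± 0.39 (adjusted p = 0.000910) lost its call without the second 0 h library (adjusted p = 0.0806) and without the second 6 h library (adjusted p = 0.0566), and the call against 2 h was lost without the second 2 h library (adjusted p = 0.0632) and without the second 6 h library (adjusted p = 0.0681).

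Syt2, the fast sensor used in place of Syt1 in hindbrain synapses and some interneurons, had 42.6 and 55.6 normalized counts before KCl, 73.9 and 56.9 after 2 h, and 18.2 and 15.1 after 6 h. The 6 h libraries were the lowest, with a log2 fold change of -1.56 ± 0.48 against 0 h (adjusted p = 0.00316) and -1.98 ± 0.47 against 2 h (adjusted p = 0.000129). On the TPM scale the direction of Syt2 turned: it stood at 0.83 and 0.60 TPM before KCl and 1.41 and 0.54 TPM after 6 h. The effective length assigned to Syt2 was 3620 and 6542 bases at 0 h but 796 and 1755 bases at 6 h, so the fewer reads at 6 h were spread over a shorter estimated transcript. Without the second 0 h library (adjusted p = 0.128) and without the second 6 h library (adjusted p = 0.0932) the call of Syt2 against 0 h was lost.

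Of the remaining sensors, Syt13 fell by 0.35 and Rph3a (rabphilin, a Rab3 effector) by 0.31 at 6 h (adjusted p of 0.0162 and 0.0293), and Rph3a no longer passed after GC correction. Syt9 had 1135 and 996.9 counts before KCl, 894.8 and 1001 after 2 h, and 1177 and 1272 after 6 h, a rise from 2 h to 6 h of 0.37 ± 0.14 (adjusted p = 0.0253), which did not pass with library totals. Syt6 had log2 fold changes of -0.07 at 2 h and -0.19 at 6 h, neither past the test. Syt10 had 69.2 and 70.8 normalized counts before KCl, 52.9 and 27.9 after 2 h, and 111.3 and 94.6 after 6 h, with no overlap between any groups. It is known from olfactory bulb neurons as a sensor for the release of IGF-1. Its log2 fold change was -0.79 ± 0.40 at 2 h (adjusted p = 0.143), 0.56 ± 0.38 at 6 h (adjusted p = 0.239) and 1.35 ± 0.40 from 2 h to 6 h (adjusted p = 0.00248). Without the second 2 h library, the lower of the pair, the last value for Syt10 was 0.97 (adjusted p = 0.0853), without the first 6 h library it was 1.22 (adjusted p = 0.110), and without the first 2 h library Syt10 was called lower at 2 h (-1.34, adjusted p = 0.0364).

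The make-up of the synaptotagmin family changed with Syt4. Summed over the 14 synaptotagmins, the level was 1156 and 1144 TPM before KCl, 1642 and 1542 TPM after 2 h, and 1498 and 1517 TPM after 6 h. Syt4 took 24.7% and 24.6% of this sum before KCl, 43.3% and 35.3% after 2 h, and 46.2% and 46.7% after 6 h. Over the same times Syt11 went from 28.4% and 28.7% to 22.0% and 21.8%, and Syt1 from 20.7% and 19.4% to 17.3% and 17.1%. These are shares of RNA and not of protein.

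**Figure D2:**
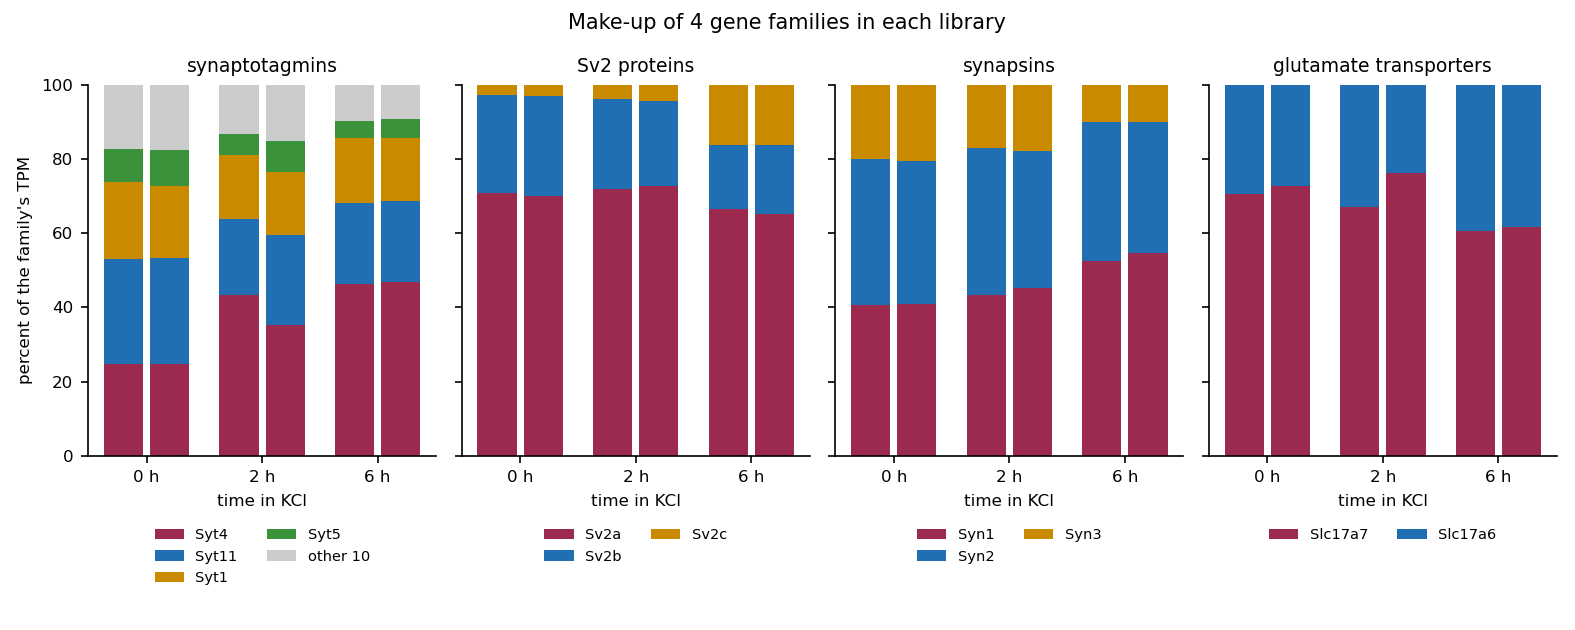
Share of each family's summed TPM (vertical axis, percent) held by its members in each of the 6 libraries, with 2 bars per time in KCl. Syt4 grew to over 46% of synaptotagmin RNA at 6 h, Sv2c to over 16% of Sv2 RNA, and Syn3 shrank to about 10% of synapsin RNA.

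Of the 10 SNARE genes and binders, 2 rose and 0 fell at 2 h (12.3% and 14.2% of all genes did), and 6 rose and 2 fell at 6 h (23.7% and 21.7% of all genes), with a median log2 fold change of 0.17 and 0.49. With library totals as the scale, 3 of the 6 (Vamp1, Vamp2 and Vamp4) no longer passed at 6 h, and neither gene that rose at 2 h (Snap25 and Vamp2) passed there. Among the 10, 1 was called, Stxbp5l at 6 h, where 9.1% of all genes were called higher and 10.2% lower against 0 h.

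Stxbp5l encodes tomosyn-2, a syntaxin-binding protein that holds SNARE assembly back, and lies at chr16:37114942-37384962 on the minus strand of GRCm38. Its normalized counts were 409.2 and 324.4 before KCl, 389.5 and 205.7 after 2 h, and 1178 and 1196 after 6 h. The 0 h and 2 h groups overlapped and the 6 h libraries lay above both, by 1.69 on the log2 scale against 0 h (standard error 0.29, adjusted p = 2.53e-08), a 3.24-fold rise. Against 2 h the log2 fold change was 2.00 ± 0.29 (adjusted p = 5.81e-11). At 2 h it was -0.30 ± 0.29 (adjusted p = 0.521), but the 2 h libraries differed by 0.92 on the log2 scale, and without the first of them the Stxbp5l value at 2 h was -0.84 (adjusted p = 0.000259), without the second 0.07 (adjusted p = 0.862). The close relative Stxbp5, tomosyn-1, had 2693 and 2416 counts before KCl, 3588 and 2771 after 2 h, and 4583 and 4432 after 6 h, a rise of 0.82 ± 0.16 at 6 h (adjusted p = 1.44e-06). Both tomosyn genes thus rose at 6 h.

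Snap25, a plasma-membrane SNARE, had 7806 and 7159 normalized counts before KCl, 11682 and 9152 after 2 h, and 14079 and 13716 after 6 h, in 3 separate groups. It rose by 0.48 ± 0.15 at 2 h (adjusted p = 0.00708) and by 0.89 ± 0.15 at 6 h (adjusted p = 1.42e-08), a 1.86-fold rise that stayed under the 2-fold rule. Its relative Snap47 went the other way, with 8731 and 8531 counts before KCl, 8783 and 10059 after 2 h, and 6534 and 6082 after 6 h (a fall of 0.45, adjusted p = 0.000453). Stx1a, the main presynaptic syntaxin, fell by 0.42 at 6 h (standard error 0.15, adjusted p = 0.0105), from 4083 and 4241 counts to 2936 and 3270.

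All 3 vesicle SNARE genes rose at 6 h. Vamp2, synaptobrevin-2, had 15012 and 14872 normalized counts before KCl, 18831 and 18292 after 2 h, and 19197 and 20042 after 6 h, a rise of 0.31 ± 0.09 at 2 h (adjusted p = 0.00262) and 0.39 ± 0.09 at 6 h (adjusted p = 4.30e-05). Vamp1 had 165.1 and 161.0 counts before KCl and 248.2 and 239.9 after 6 h (0.58 ± 0.20, adjusted p = 0.00972). Vamp4, linked to bulk endocytosis and spontaneous fusion, had 1185 and 1112 counts before KCl, 1160 and 780.5 after 2 h, and 1607 and 1682 after 6 h (0.52 ± 0.20 at 6 h against 0 h, adjusted p = 0.0247), and was called higher against 2 h without the first 2 h library (1.08). The 3 VAMP genes summed to 617 and 619.5 TPM before KCl and 711.4 and 753.6 TPM after 6 h. With library totals as the scale, which lowers every 6 h value, the 3 no longer passed at 6 h against 0 h, though none changed sign. Stx3 (0.47 ± 0.22 at 6 h, adjusted p = 0.0750) and Stx4a (-0.20 ± 0.19, adjusted p = 0.408) did not pass the test.

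Of the 3 complexins, none was called in any comparison. Over all genes, 3.62% to 10.1% were called higher and 5.94% to 10.2% lower, and 3 genes are too few to set against these shares. Cplx2 had 15608 and 15526 normalized counts before KCl, 16523 and 18571 after 2 h, and 12496 and 11818 after 6 h, and fell by 0.36 at 6 h (standard error 0.11, adjusted p = 0.00321). Cplx1 counts were 4953 and 4734 before KCl and 4714 and 4663 after 6 h (-0.05 ± 0.10, adjusted p = 0.754), and fell by 0.26 from 2 h to 6 h (adjusted p = 0.0307). Cplx3, the complexin of retinal ribbon synapses and subplate neurons, had 5.33 and 3.37 counts before KCl and 11.8 and 11.8 after 6 h. Its log2 fold change of 1.44 ± 0.89 (adjusted p = 0.183) was not called by DESeq2 and was called by edgeR (1.39, adjusted p = 0.0400), and at this depth the gene is too low to be measured well.

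Of the 9 active-zone genes, 3 rose and 0 fell at 2 h (12.3% and 14.2% of all genes did), and 4 rose and 2 fell at 6 h (23.7% and 21.7% of all genes), with a median log2 fold change of 0.25 and 0.24. Rims1, a RIM scaffold that links vesicles to calcium channels, had 2791 and 2725 normalized counts before KCl, 3923 and 3665 after 2 h, and 4338 and 4436 after 6 h, rising by 0.46 ± 0.10 (adjusted p = 5.25e-05) and 0.67 ± 0.10 (adjusted p = 3.03e-10). Rims2 had 838.0 and 815.8 counts before KCl, 913.7 and 896.3 after 2 h, and 1429 and 1389 after 6 h, so its rise of 0.77 ± 0.12 at 6 h (adjusted p = 4.15e-10) came after 2 h. Rims3, a short RIM, stood at 0.20 ± 0.12 at 6 h (adjusted p = 0.175).

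Munc13 genes prime vesicles, and whether their changes differ from one another was not tested. Unc13b, Munc13-2, had 832.7 and 851.2 normalized counts before KCl, 997.6 and 1119 after 2 h, and 1327 and 1357 after 6 h, a rise of 0.67 ± 0.13 at 6 h (adjusted p = 7.96e-07). Unc13a, Munc13-1 and the most abundant of the 3, went from 5911 and 5870 counts to 6906 and 6989 (0.24 ± 0.11, adjusted p = 0.0600). After GC correction Unc13a passed as higher at 6 h against both earlier times. Unc13c, Munc13-3, known mainly from the cerebellum, had 114.5 and 65.7 counts before KCl, 91.9 and 77.5 after 2 h, and 34.2 and 38.7 after 6 h, and was 2.47-fold lower at 6 h (log2 fold change of -1.30 ± 0.42, adjusted p = 0.00515). The 6 h libraries of Unc13c lay below those of both earlier groups, which overlapped, and its 0 h libraries differed by 0.79 on the log2 scale. Its call was lost without the first 0 h library (-0.85, adjusted p = 0.252), without the first 6 h library (-1.22, adjusted p = 0.0992) and without the second (-1.40, adjusted p = 0.0585), and against 2 h without the first 2 h library (adjusted p = 0.0960), the first 6 h library (adjusted p = 0.130) or the second (adjusted p = 0.0823).

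Of the large scaffolds, Bsn (bassoon) rose by 0.38 ± 0.14 at 2 h (adjusted p = 0.0351) and stood at 0.19 ± 0.14 at 6 h (adjusted p = 0.299). Pclo (piccolo) had 6658 and 5565 counts before KCl, 6878 and 5810 after 2 h, and 8151 and 8427 after 6 h, a rise of 0.44 ± 0.15 at 6 h (adjusted p = 0.00735). With library totals neither Bsn at 2 h nor Pclo at 6 h (0.20) passed. Erc2 (CAST) fell by 0.27 at 6 h (adjusted p = 0.0471), from 6270 and 5892 counts to 5238 and 4842.

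**Figure D3:**
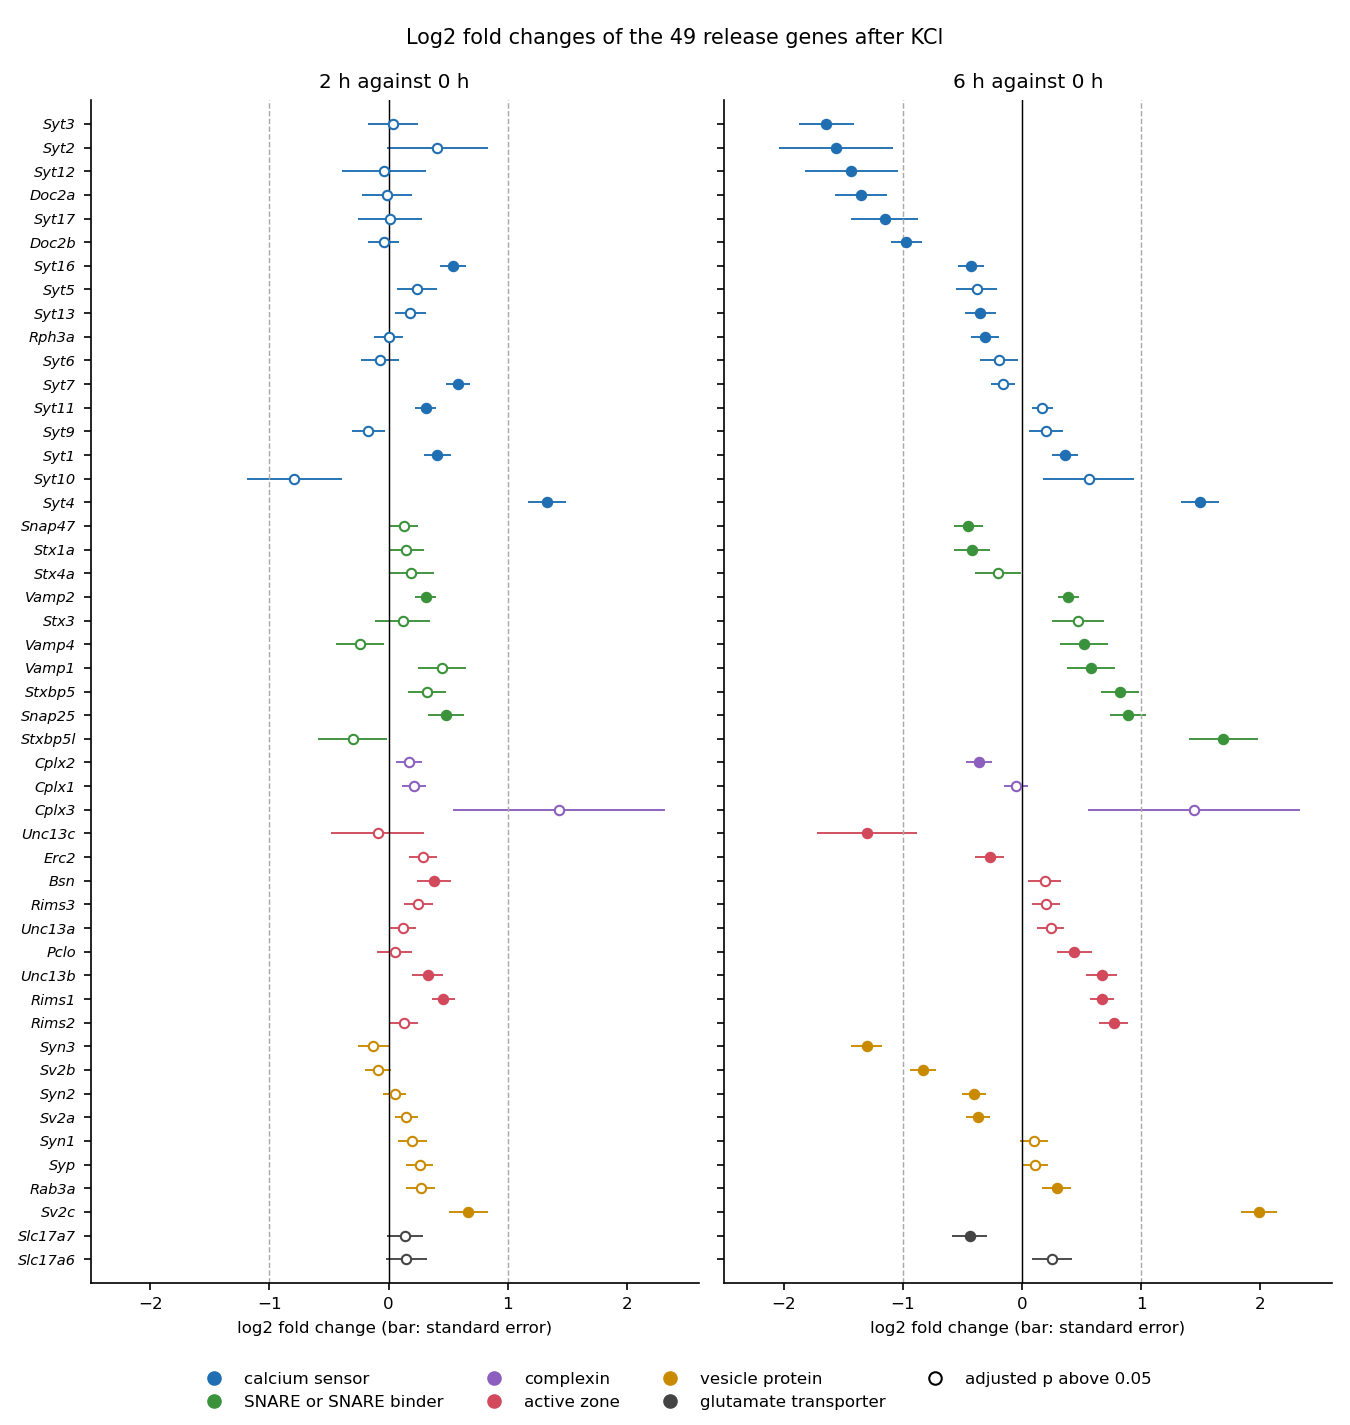
Log2 fold changes (horizontal axes) of the 49 members at 2 h and 6 h against 0 h, with standard errors as bars, coloured by role, filled where the adjusted p was at most 0.05, and dashed lines at a fold change of 2. At 2 h the filled points all lie to the right of 0 and only Syt4 of these lies beyond the dashed line, while at 6 h filled points lie on both sides.

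The vesicle proteins included the gene with the largest fold change at 6 h. Of 8, 1 rose and 0 fell at 2 h (12.3% and 14.2% of all genes did), and 2 rose and 4 fell at 6 h (23.7% and 21.7% of all genes). Sv2c, an SV2 glycoprotein best known from basal ganglia and as a receptor of botulinum toxin A (chr13:95954594-96132577 on the minus strand of GRCm38), had 255.7 and 299.2 normalized counts before KCl, 449.4 and 432.1 after 2 h, and 1119 and 1080 after 6 h. No groups overlapped and each time lay above the one before. Its log2 fold change was 0.67 ± 0.16 at 2 h (adjusted p = 0.000227) and 1.99 ± 0.15 at 6 h (adjusted p = 4.87e-36), a 3.96-fold rise. From 2 h to 6 h it was 1.32 ± 0.15 (adjusted p = 8.11e-17).

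The other SV2 genes fell. Sv2a, the widespread form and the target of levetiracetam, had 8941 and 8287 normalized counts before KCl, 9311 and 9775 after 2 h, and 6832 and 6530 after 6 h, a fall of 0.37 at 6 h (adjusted p = 0.00116). Sv2b had 4234 and 4073 counts before KCl, 3924 and 3888 after 2 h, and 2217 and 2440 after 6 h, a fall of 0.83 at 6 h (standard error 0.11, adjusted p = 1.28e-13), and it was called lower with library totals (-1.08) and with limma on log2(TPM + 0.5) (-1.01). The sum of the 3 Sv2 genes went from 224.3 and 213.8 TPM before KCl to 158.3 and 163.9 TPM after 6 h, while the share of Sv2c in it went from 2.79% and 3.01% to 16.3% and 16.4%. At 6 h Sv2c was still below Sv2b, which held 17.2% and 18.5%.

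The synapsins parted as well. Syn3 (chr10:86055125-86498896 on the minus strand of GRCm38) had 2314 and 2244 normalized counts before KCl, 1930 and 2233 after 2 h, and 908.5 and 936.8 after 6 h. The 6 h libraries lay clear below the others, with a log2 fold change of -1.30 ± 0.13 (adjusted p = 2.22e-22), or 2.47-fold lower. Syn3 exons overlap those of Timp3, which is on the opposite strand, and its expected counts were not whole in any of the 6 libraries. Syn2 fell by 0.40 at 6 h (standard error 0.10, adjusted p = 0.000177), from 6950 and 6637 counts to 5290 and 5041. Syn1 had 5987 and 5864 counts before KCl and 6205 and 6493 after 6 h (0.10 ± 0.12, adjusted p = 0.524). Syn3 held up to 20.4% of synapsin TPM at 0 h and up to 10.1% at 6 h, and Syn1 went from 40.7% and 41.0% to 52.6% and 54.7%.

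The general vesicle genes changed by little. Syp had 12763 and 12360 normalized counts before KCl, 14196 and 15884 after 2 h, and 13582 and 13468 after 6 h (0.11 ± 0.11 at 6 h, adjusted p = 0.434). Rab3a, which guides vesicles to the active zone, rose by 0.29 ± 0.12 at 6 h (adjusted p = 0.0314), but stood at 0.05 with library totals and did not pass.

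Of the vesicular glutamate transporters, Slc17a7 (VGLUT1) had 1720 and 1929 normalized counts before KCl, 1826 and 2205 after 2 h, and 1359 and 1325 after 6 h, a fall of 0.44 at 6 h (standard error 0.15, adjusted p = 0.00749). Slc17a6 (VGLUT2) had 1099 and 1105 counts before KCl, 1380 and 1059 after 2 h, and 1350 and 1268 after 6 h (0.25 ± 0.17 at 6 h, adjusted p = 0.220). The share of Slc17a6 in the sum of both went from 29.5% and 27.3% of TPM at 0 h to 39.4% and 38.5% at 6 h. Over the same times the excitatory neuron markers Neurod6 and Tbr1 rose and the summed level of the interneuron markers was higher, as given above, and what part a change in cell make-up has in these values was not tested.

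Most abundant members stayed within the 2-fold threshold. Of the 15 members above 100 TPM at 0 h, Syt4 was the only one called in any comparison. Over genes of every level, 9.1% were called higher and 10.2% lower at 6 h against 0 h. The share called among all genes above 100 TPM was not counted, so whether this is particular to the release genes was not tested. The genes called lower at 6 h started at 0.715 TPM (Syt2) to 71.3 TPM (Syn3), and the other 2 called higher at 6.35 TPM (Sv2c) and 8.44 TPM (Stxbp5l). Added over all 49 members, the level was 5085 and 5031 TPM before KCl, 5559 and 5691 TPM after 2 h, and 5247 and 5338 TPM after 6 h, which is a share of the RNA pool and not an absolute amount.

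**Figure D4:**
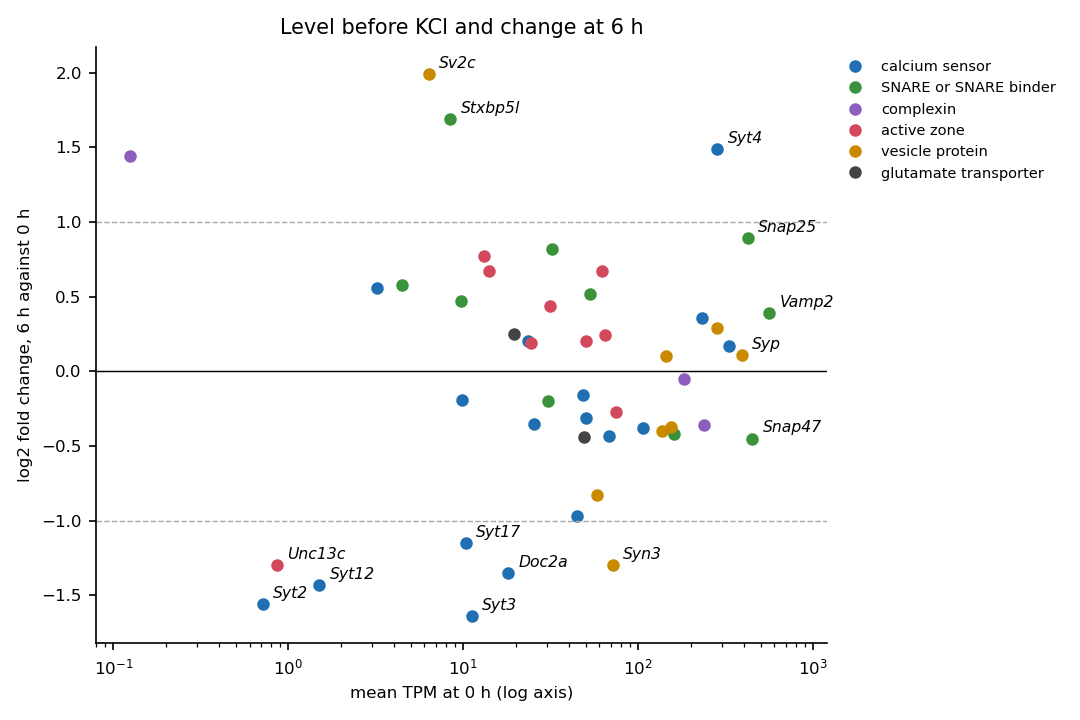
Mean level of the 49 members at 0 h (horizontal axis, TPM, log scale) against the log2 fold change at 6 h against 0 h (vertical axis), coloured by role, with dashed lines at a fold change of 2. Syt4 is the one gene beyond a dashed line among those above 100 TPM.

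The scale and the library composition set how many members pass the test without a fold limit. With library totals in place of median-of-ratio factors, over the genes whose mean count reached 10, the median log2 fold change moved to -0.157 at 2 h and -0.253 at 6 h, and the members that passed went from 11 to 6 higher at 2 h, and from 14 to 8 higher and from 19 to 23 lower at 6 h. Over all genes the share of higher among called genes was 28.7% rather than 47.2% at 6 h and 27.3% rather than 37.8% at 2 h. The members lost were Bsn, Snap25, Syt11, Unc13b and Vamp2 at 2 h, Pclo, Rab3a, Syt1, Vamp1, Vamp2 and Vamp4 among those higher at 6 h against 0 h, and Syt9 and Unc13b from 2 h to 6 h. No member that had passed changed sign on that scale. After correction for GC content 23 members rose at 2 h, the 11 among them. At 6 h against 0 h 21 rose, the 14 among them. Gained there were Bsn, Rims3, Stx3, Syn1, Syp, Syt11 and Unc13a, and Syt5 among those that fell. From 2 h to 6 h Unc13a was gained among those that rose, and Syt1, Syt4 and Syt11 among those that fell. Rph3a at 6 h against both earlier times, and Cplx1 and Snap25 from 2 h to 6 h, no longer passed. Leaving out 1 library gave 4 to 21 members higher at 2 h, with 4 without either of the 0 h libraries, 7 without either of the 6 h libraries and 21 without the first 2 h library, which also gave 3 lower at 2 h. At 6 h against 0 h it gave 8 to 20 higher, with 8 without the second 0 h or the second 6 h library and 9 without the first 6 h library, and 6 to 21 lower, with 6 and 11 without the second and the first 6 h library and 8 and 9 without the first and the second 0 h library. At 6 h against 2 h it gave 4 to 11 higher, with 4 without the first 6 h library and 5 without the second, and 17 to 25 lower.

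A list of 48 further genes with roles in vesicle docking, priming, fusion and recycling was followed in the same way. At 2 h 0 were called in either direction, where 3.62% of all genes were called higher and 5.94% lower (with 16 higher and 3 lower at an unadjusted p under 0.05 in DESeq2 and 0 called by edgeR or limma), and 12 rose and 1 fell whatever the fold (12.3% and 14.2% of all genes did). At 6 h against 0 h, 0 were called higher (15 at an unadjusted p under 0.05, and 0 by edgeR or limma) and 2 lower, where 9.1% and 10.2% of all genes were, and 14 rose and 11 fell (23.7% and 21.7% of all genes). The called genes were Ap3b2, a neuronal AP-3 adaptor subunit (5980 and 5650 normalized counts at 0 h, 2243 and 2065 at 6 h, a fall of 1.43, adjusted p = 3.98e-29), and Rab3d (1487 and 1407 at 0 h, 628.1 and 704.5 at 6 h, a fall of 1.12, adjusted p = 4.61e-14). Against 2 h, 7 rose and 15 fell (24.1% and 21.2% of all genes), with 1 called higher (Syt14) and 1 lower (Ap3b2), where 10.1% and 8.02% of all genes were. Syt8 and Cplx4 were at or under 3 counts in every library. Without the first 2 h library, 1 was called lower at 2 h and 2 higher at 6 h against 2 h. Without the second 2 h library, 0 were called higher and 2 lower at 6 h against 2 h, and without the second 6 h library 1 was called higher at 6 h against 0 h.

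To ask whether the release genes changed in the length of their transcripts, the effective length, which the quantifier weights by isoform, was compared for the 44 members whose counts averaged at least 100. A gene was called where limma gave an adjusted p of at most 0.05 and the log2 ratio exceeded 0.2. By this rule 0 of 44 were called at 2 h against 0 h (0.0356% of 11233 genes were), 0 at 6 h against 0 h (0.525%) and 0 at 6 h against 2 h (0.116%). At an unadjusted p under 0.05 limma gave 2, 4 and 5 members, and the lowest adjusted p were 0.351, 0.211 and 0.2. The effective length of Syt4 was 3579 to 3599 bases in the 6 libraries, and that of Snap25 was 1288 and 1224 bases before KCl and 1360 and 1357 bases after 6 h. Sv2c had the largest log2 ratios in size, -0.25 at 6 h against 0 h (limma, adjusted p = 0.464) and -0.31 against 2 h (adjusted p = 0.513). Its lengths were 2880 and 3297 bases before KCl and 2668 and 2527 bases after 6 h, without overlap. Unc13a stood at -0.23 at 6 h against 0 h (adjusted p = 0.412).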

How the data were processed

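The authors trimmed the paired reads with Trim Galore, mapped them to the mm10 mouse genome and quantified genes with RSEM 1.3.0 and Bowtie2 2.2.9 (versions per the submitters' processing notes). The deposited tables give an expected count (estimated, not always whole), a TPM value and an effective length per gene, library by library. The strand setting and annotation release are not given in the sources used here. Symbols and positions were taken from GENCODE (GRCm38), which matched 42462 of 43432 gene IDs.

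Expected counts were rounded and tested with DESeq2 1.42.0 (Wald test, Benjamini-Hochberg adjustment over all genes tested) in R 4.3.3, on all 6 libraries with 3 groups. A gene was called where the adjusted p did not exceed 0.05 and the fold change, up or down, exceeded 2. Normalized counts are counts over median-of-ratio size factors. Effective lengths were tested with limma 3.58.1 on the log2 scale. Alternatives used edgeR 4.0.16 (quasi-likelihood), limma on log2(TPM + 0.5), TMM factors, library totals, a mean count of at least 10, GC correction, the replicate number as a block, a test against a fold change of 2, only the 2 groups compared, and each library left out. The scripts were tested on simulated data.

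The named genes are all 49 members, the called pathway genes with the largest changes (up to 3 each way), and Fos, Npas4 and Bdnf as controls. Syt14, Syt8, Cplx4, the markers named singly and the overlapping genes were named after their values were seen. The members and lists were chosen with earlier results of these data known. With 25959298 to 28573067 counts per library, precision is set mainly by the 2 libraries per group. Protein sequences were not analysed here. One gene each of the excitatory neuron and oligodendrocyte lineage marker lists, and the sums over those lists, are not reported here.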

Additional observations from a re-analysis of the deposited data

Results flagged for a closer look

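The changes from 0 h differed between 2 h and 6 h for 10 members, by the DESeq2 test of 6 h against 2 h (adjusted p at most 0.05 and more than 2-fold). Of these, 3 were higher at 6 h than at 2 h, Stxbp5l by 2.00, Syt10 by 1.35 and Sv2c by 1.32 on the log2 scale. The other 7 were lower, with log2 fold changes of -1.98 for Syt2, -1.69 for Syt3, -1.39 for Syt12, -1.34 for Doc2a, -1.22 for Unc13c, -1.17 for Syn3 and -1.16 for Syt17. Over all genes tested, 10.1% were called higher and 8.02% lower at 6 h against 2 h, against 6.12% and 14.3% of the members. Whether these shares differ was not tested. Among the 7 lower members, all had log2 fold changes at 2 h that did not pass the test. Groups of 2 libraries allow no search for single outlying libraries.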

How the results depend on the processing

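The counts and fold changes of the members were recomputed under 16 alternatives (15 for Cplx3, which the filter on a mean count of at least 10 removes), and the effective lengths under 8. Over the log2 fold changes of the members in 3 comparisons, 2290 values stayed called or uncalled as before, 39 lost the call, 18 gained it and 2 called values turned in direction. Uncalled values could cross 0 and are counted among the 2290, as Syt4 did for 6 h against 2 h with GC correction (from 0.16 to -0.27, adjusted p = 0.00673). The 2 called values were those of Syt2 with limma on log2(TPM + 0.5), at 0.22 for 6 h against 0 h and 0.33 for 6 h against 2 h, where a shorter effective length at 6 h raises TPM. When the null was a fold change of 2 rather than 0, the members called went from 1 to 0 higher at 2 h, from 7 to 0 lower at 6 h against 0 h, from 3 to 1 higher and from 7 to 0 lower at 6 h against 2 h, a stricter rule by construction. With limma on log2(TPM + 0.5), 4 were called lower at 6 h against 2 h, and the cause was not tested. Leaving out each library in turn gave 1 called higher and 0 to 1 lower at 2 h, 3 higher and 4 to 7 lower at 6 h against 0 h, and 2 to 4 higher and 5 to 7 lower at 6 h against 2 h. The lowest count of 4 came without the second 6 h library, and the 1 lower at 2 h came without the first 2 h library. A lone library is assumed to vary like the other groups. Syt4, Stxbp5l, Sv2c, Syt3, Doc2a and Syn3 kept every call in the 15 alternatives other than the test against a fold change of 2. No member was called for effective length in any alternative.

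The replicate numbers were also tried as a block. The correlations of same-numbered libraries' deviations were 0.281, -0.002 and 0.152 over 12290 genes (0.091, -0.063 and 0.039 after GC correction), so the numbers were not taken to pair the libraries. With the replicate block the members called were 1 higher and 0 lower at 2 h, and 3 higher and 7 lower at 6 h against 0 h, as without it, and no effective length was called (0 of 44). Depth limits Cplx3, Syt2, Syt12 and Unc13c.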
